A study of Mus musculus with 48 samples.

Results

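Gene expression in the medial prefrontal cortex (mPFC) was compared between stressed and non-stressed female mice with intact ovaries. The comparison was defined by the sample labels: the 6 arrays titled mPFC_stress and the 6 titled mPFC_control, 12 of the 48 arrays of the study. All 12 mice were 17-week-old C57BL/6J females that had received a sham operation. Stress mice were later exposed to chronic ultra-mild stress (CUMS), in which mild stressors such as a tilted, small, soiled or exchanged cage, lights on overnight, difficult access to food and, at the weekend, a reversed light/dark cycle were given in weekly rounds. Control mice were not stressed. The study also measured whole blood of the same animals and both tissues of ovariectomized (OVX) mice with and without stress. Each array holds the mPFC of 1 mouse, dissected under a microscope from coronal slices after blood had been drawn under pentobarbital. By the study's methods, stress began 2 weeks after surgery and ran for 6 weekly rounds, and samples were taken 1 day after it ended. The question of the comparison is which transcripts of the mPFC differ after CUMS when the ovaries are present.

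The mPFC is a cortical area that takes part in the control of emotion and of the hormonal response to stress, and chronic stress is known to alter its neurons. Immediate early genes such as Arc and Fos are transcribed within minutes of neuronal activity, glucocorticoid-induced genes such as Fkbp5 and Sgk1 follow the release of corticosterone, and clock genes follow the time of day. Chaperone genes are induced when proteins misfold, by heat shock factors in the cytosol and by the factors ATF6 and XBP1 when folding fails in the endoplasmic reticulum (ER).

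Levels are given as log2 of the background-subtracted intensity of a probe minus the 75th percentile of its array, so that 0 is the 75th percentile of the array, and levels of different probes are not compared. This percentile was 611 to 689 intensity units on the control arrays and 605 to 632 on the stress arrays. Between 31551 and 38053 of 55681 probes per array were well above background. Of these, 29948 were so on all 12 arrays and were tested, and they represent 15398 genes by the brightest probe of each. An array slide carries 8 arrays. The 6 control arrays shared slide 1 with stress arrays 1 and 2, whereas stress arrays 3 to 6 were on slide 2 with 4 OVX arrays. The first principal component took 42.7% of the variance and separated the slides: the 4 stress arrays of slide 2 scored 30.4 to 47.6, and the 8 arrays of slide 1 scored -34.1 to -13.4, the 2 stress arrays of slide 1 included. Differences are therefore also given for the 2 stress arrays of slide 1 (the slide 1 difference) and for the 4 stress arrays of slide 2 (the slide 2 difference), both against the 6 control arrays, for the gene lists and for most genes described. Both use the same control arrays. Arrays also differed by row: among control arrays alone, 392 probes differed between the rows of the slide (limma). The rows hold different mice, so position and mouse cannot be told apart there. Each group had 4 arrays in row 1 and 2 in row 2, but the 2 stress arrays of row 2 are those of slide 1 and the 4 of row 1 are those of slide 2. The slide 1 difference is therefore free of the slide but not of the row, and the comparison between the stress arrays of the slides is also one between rows. With the row as a block, which sets the stress arrays of slide 1 against the 2 control arrays of their row, the median slide 1 difference was 0.21 for the immediate early genes, 0.14 for the glucocorticoid-induced, 0.08 for the clock, 0.09 for the heat shock, 0.08 for the ER, -0.04 for the endothelial and 0.12 for the myelin genes. It was 0.18 for the genes called higher and -0.18 for those called lower. These genes were called with the same arrays, so the signs largely follow from the call.

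**Figure D1:**
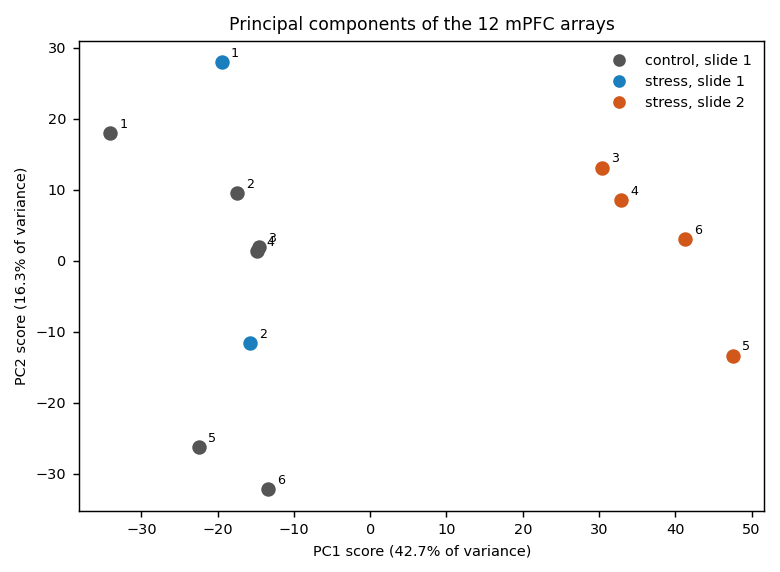
Scores of the 12 arrays on the first principal component (x axis) and the second (y axis) of the 29948 tested probes, by group and slide. The stress arrays of slide 2 lie between 30.4 and 47.6 on the first component, while the stress arrays of slide 1 lie among the control arrays.

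The mPFC markers were present. Slc17a7, the vesicular glutamate transporter of cortical excitatory neurons, had a median level of 3.09 in control and 3.25 in stress mice, and all 27 genes of the excitatory neuron list were well above background on all 12 arrays. The interneuron peptide gene Sst had medians of 5.92 and 5.75. The summed intensity of 15 striatal genes, which would show a dissection that reached the striatum, was 85.5 to 91.6 in control and 82.7 to 87.7 in stress arrays. In bulk tissue, fewer cells of a type and less RNA per cell cannot be told apart.

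Of the 29948 probes, 1712 (5.72%) differed between stress and control mice at a limma adjusted p under 0.05, of which 761 (2.54%) were higher and 951 (3.18%) lower in stress mice. By gene, 828 of 15398 (5.38%) passed, 480 (3.12%) higher and 348 (2.26%) lower. The differences were small: their median size over the called probes was 0.36, 464 exceeded 0.5 and 70 exceeded 1. The lowest adjusted p of any probe was 0.0329, so that every call lies close to the threshold, and 30.5% of the probes had an unadjusted p under 0.05. Over all genes the median difference was 0.05 and 63.2% were above 0. These shares, with 3.12% called higher and 2.26% called lower, are the background for every gene list below. Within slide 1, no probe passed (limma, 6 control against 2 stress arrays), and 1486 (4.96%) had an unadjusted p under 0.05. With the row as a block too, no probe passed, with 2549 at an unadjusted p under 0.05. With slide as a block over the 12 arrays, no probe passed either, with 1988 (6.64%) at an unadjusted p under 0.05. Leaving out 1 array moved the count between 0 and 7044: it was 0 without control array 2, 3 or 6 or stress array 4, 5 or 6, at most 58 without control array 1, 4 or 5 or stress array 3, and 7044 and 6177 without stress arrays 1 and 2. Of the called probes 44.5% were higher, and 5.79% when arrays were scaled by their spike-in RNA, which moved the median of all genes from 0.05 to -0.04. The calls below are those of all 12 arrays at the 75th percentile scale.

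Rises and falls were unlike each other. The 480 genes called higher had a median difference of 0.27, with a slide 1 difference of 0.18 and a slide 2 difference of 0.32. The 348 genes called lower had a median difference of -0.44, with a slide 1 difference of -0.15 and a slide 2 difference of -0.56. The calls use these same arrays, so the signs on both slides largely follow from the call. Stress arrays of slide 2 differed from stress arrays of slide 1 (limma adjusted p under 0.05) for 4609 probes (15.4%; 1617, or 5.4% of those tested, higher on slide 2), and by gene for 12.3% of all genes, for 48 (10.0%) of those called higher and for 206 (59.2%) of those called lower. This comparison uses the same stress arrays, and its counts are a description. The slides also differ in row here, and with the row as a block over the 12 arrays 2735 probes passed. The median intensity was 1388 for genes called higher, 389 for genes called lower and 1109 for all genes. Of 188 other tested probes of the genes called higher, 153 (81.4%) were also above 0, against 3817 of 5806 (65.7%) for the other probes of all genes. Of 113 other probes of the genes called lower, 57 (50.4%) were below 0.

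The rises that were largest, among genes whose 6 stress arrays all exceeded the 6 control arrays, were led by Arc, the activity-regulated cytoskeletal gene of excitatory synapses (probe A_55_P2021810, GRCm38 chr15:74669081-74672570). Its level was 2.90 to 4.64 in control mice (median 3.84) and 4.66 to 5.02 in stress mice (median 4.81). The control mice spread widely and the stress mice lay in a narrow band above all of them. The difference was 1.05 ± 0.25 (SE, n = 6 per group), a 2.07-fold rise (limma adjusted p = 0.0476; exact two-sided permutation p = 0.00216, the smallest that 6 against 6 can give). Every gene without overlap has this permutation p, and Arc was taken from such genes, so it adds no support. The permutation, here and below, does not take the slide into account. The slide 1 difference was 1.06 and the slide 2 difference 1.04.

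Of all genes, 333 (2.16%) had every stress array above every control array and 131 (0.851%) every stress array below. Of these, 235 (1.53%) were called higher and 101 (0.656%) lower. The 12 largest called rises without overlap were Arc, Rasl11a, Per2, Zbtb40, Mfsd2a, Helz2, Klf2, Luc7l, Klf4, Pla2g3, Epha2 and P4ha1. Since they were chosen for having no overlap, their slide 1 differences, 0.25 or more in size, are above 0 by that choice and are given as a description. Mfsd2a, which carries docosahexaenoic acid across the blood-brain barrier (probe A_51_P279437, chr4:122946850-122961194), ran from 1.32 to 1.84 (median 1.60) in control and from 2.04 to 2.42 (median 2.22) in stress mice. It rose by 0.61 ± 0.09 (limma adjusted p = 0.0359), by 0.60 on slide 1 and 0.62 on slide 2. Klf2, a flow-responsive transcription factor of endothelium (probe A_51_P144264, chr8:72319062-72321654), ran from 0.18 to 0.74 (median 0.52) and from 0.82 to 1.21 (median 1.14), a rise of 0.58 ± 0.10 (limma adjusted p = 0.0432), with 0.65 on slide 1 and 0.54 on slide 2. Neither gene's groups overlapped.

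Among the other leading rises, Helz2, a coactivator and interferon-responsive helicase, rose by 0.59 ± 0.08 (limma adjusted p = 0.0359), from -1.50 to -1.14 in control mice to -0.97 to -0.54 in stress mice. On slides 1 and 2 it differed by 0.51 and 0.63. Zbtb40, a zinc finger gene, rose by 0.62 (0.52 and 0.67) and Rasl11a, a small GTPase of the Ras family, by 0.70, the latter from a low level of -4.01 to -3.22. Epha2, an ephrin receptor, rose by 0.51 and Pla2g3, a secreted phospholipase, by 0.54, with a slide 1 difference equal to the whole for Pla2g3. P4ha1, a prolyl hydroxylase of collagen, rose by 0.50, with 0.25 on slide 1 and 0.63 on slide 2. Another probe each was measured for P4ha1, with a difference of 0.27, and for the splicing factor Luc7l, with 0.06 beside the 0.55 of the called probe.

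**Figure D2:**
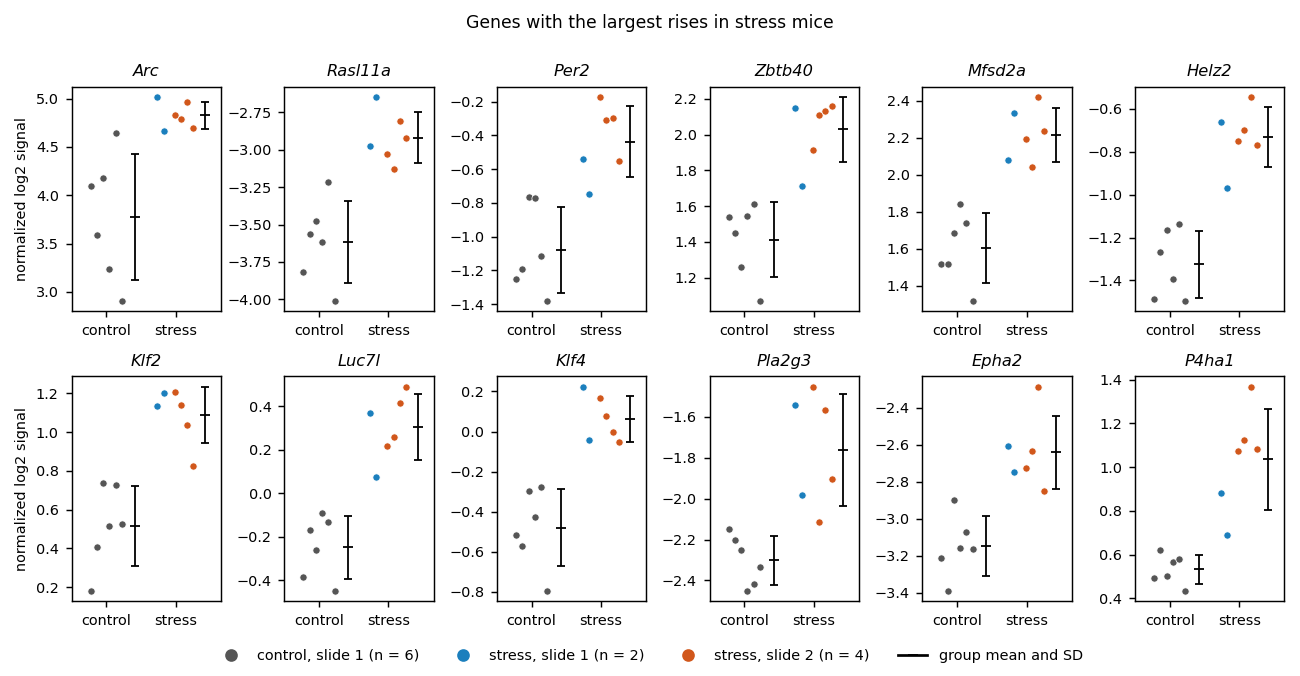
Level of the 12 genes with the largest called rises in each array (y axis, log2 intensity relative to the 75th percentile), for control mice and for stress mice of slide 1 and slide 2, with group mean and SD. By the choice of these genes, all 6 stress arrays lie above all 6 control arrays, on both slides.

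Most immediate early genes lay above the control level. Of 31 tested members, 30 were above 0, 4 were called higher (background 3.12%) and none lower, and the median difference was 0.29 against 0.05 for all genes (0.20 against -0.04 with spike-in scaling). The median was 0.32 on slide 1 and 0.26 on slide 2, and no member passed the test between the stress arrays of the 2 slides (limma adjusted p under 0.05). On slide 1 alone, 6 members were higher and 0 lower at an unadjusted p under 0.05, against 2.33% and 2.32% of all genes. Beside Arc, the called members were Klf4, Trib1 and Ier2. Klf4, a transcription factor induced by growth factors and activity (probe A_55_P2122020, chr4:55527137-55532475), ran from -0.79 to -0.28 (median -0.47) in control and from -0.05 to 0.22 (median 0.04) in stress mice. Its groups did not overlap, and it rose by 0.54 ± 0.09, with 0.57 on slide 1 and 0.53 on slide 2. Trib1, a pseudokinase, rose by 0.58 (limma adjusted p = 0.0476), and its 2 other probes differed by 0.45 and 0.47. Ier2 rose by 0.42 (limma adjusted p = 0.0480). Stress and control mice overlapped in both.

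Other well known members of the group did not pass. Fos, the classical marker of recent activity, differed by 0.36 ± 0.22 (limma adjusted p = 0.285), with control mice from 0.19 to 1.38 and stress mice from 0.73 to 1.57. Egr1 differed by 0.29 (0.277), Egr2 by 0.67 (0.134), Nr4a1 by 0.56 (0.0719), Maff by 0.58 (0.0656), Dusp1 by 0.29 (0.0822) and Npas4 by 0.19 (0.467), with limma adjusted p-values in parentheses. Bdnf, the neurotrophin whose transcription follows activity, differed by 0.06. The list's mean shift per array, each gene centred on its mean over the 12 arrays, was -0.42 to 0.23 in control arrays, 0.20 to 0.22 in the stress arrays of slide 1 and -0.06 to 0.37 in those of slide 2. The spread was widest in the control mice, and the groups overlapped.

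Clock genes gave 2 calls among 23 tested, both higher (background 3.12%), with a median difference of 0.10 (0.01 with spike-in scaling). Per2, a repressor in the core clock loop (probe A_51_P282760, chr1:91415977-91459351), ran from -1.38 to -0.77 (median -1.15) in control and from -0.75 to -0.17 (median -0.42) in stress mice. It rose by 0.64 ± 0.13 (limma adjusted p = 0.0461), by 0.44 on slide 1 and 0.75 on slide 2. Tef, an output transcription factor of the clock, rose by 0.24 ± 0.06 (limma adjusted p = 0.0476), from 6.92 to 7.11 in control and 7.14 to 7.36 in stress mice. Neither gene's groups overlapped. Per1 differed by 0.42 (limma adjusted p = 0.0505), Bhlhe40 by 0.31 (0.0551), Csnk1d by 0.20 (0.0511) and Dbp, another output factor, by 0.24 (0.377). Dbp lay on opposite sides of 0 on the slides, with -0.19 on slide 1 and 0.45 on slide 2.

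Of 30 tested glucocorticoid-induced genes, 2 were called higher (background 3.12%) and none lower, with a median difference of 0.14 (0.05 with spike-in scaling). The slide 1 median was 0.17 and the slide 2 median 0.12. The called members were Slc2a1, the glucose transporter of the blood-brain barrier, and Nfkbia, the inhibitor of NF-kappa-B. Slc2a1 rose by 0.28 ± 0.06 (limma adjusted p = 0.0468), from 3.35 to 3.67 in control and 3.65 to 3.90 in stress mice. Nfkbia rose by 0.27 (limma adjusted p = 0.0480), with 0.29 on slide 1 and 0.26 on slide 2. The steroid-responsive genes most often used as readouts did not pass: Fkbp5 differed by -0.12 ± 0.11 and Tsc22d3 by 0.14 ± 0.13, both with a limma adjusted p = 0.480, and Sgk1 by 0.27 ± 0.11 (limma adjusted p = 0.128). The glucocorticoid receptor gene Nr3c1 (0.05 ± 0.06) and the mineralocorticoid receptor gene Nr3c2 (0.06 ± 0.13) did not pass either. Of 17 tested corticosteroid signalling components, 1 was called, the corepressor Ncor1, which was higher by 0.39 with a slide 1 difference of 0.08 and a slide 2 difference of 0.54. The 3 other probes of Ncor1 differed by -0.14 to 0.20 and were not called, so that its direction depends on the probe.

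Of 23 tested heat shock and cold-inducible genes, 22 were above 0 (63.2% of all genes), 6 were called higher (background 3.12%) and none lower. The median difference was 0.15 (0.06 with spike-in scaling). The per-array shift of the list was -0.13 to -0.08 in control mice, -0.01 to 0.05 in the stress mice of slide 1 and 0.07 to 0.23 in those of slide 2, with no overlap between groups and the larger shift on slide 2. A list of 32 tested ER chaperone and unfolded protein response genes, written after these values had been seen, held 7 genes called higher, Hspa5 of the heat shock list among them, and none lower. In it 29 genes were above 0, the median difference was 0.15 (0.06 with spike-in scaling, with 24 above 0), and the slide 1 and slide 2 medians were 0.11 and 0.20.

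In the cytosol, the small heat shock protein gene Hspb1 (probe A_55_P2039284, chr5:135887919-135889563) had the largest rise of the list. It ran from 2.40 to 3.01 (median 2.55) in control and from 2.86 to 3.96 (median 3.61) in stress mice, with 1 stress array, stress 2, below the highest control array. The difference was 0.89 ± 0.16 (limma adjusted p = 0.0439; exact two-sided permutation p = 0.00433), 0.66 on slide 1 and 1.00 on slide 2. The HSP70 partner genes Dnajb1, Dnaja1 and Hsph1 rose by 0.33, 0.30 and 0.23, and Chordc1, an HSP90 cochaperone gene, by 0.41, each without overlap between the groups. Another probe of Dnaja1 differed by 0.07 with overlap, and another of Hsph1 by 0.24 without overlap. Dnajb1 lay between 5.22 and 5.30 in control and between 5.41 and 5.86 in stress mice. Hspa1a, the inducible HSP70, differed by 0.33 without overlap but did not pass (limma adjusted p = 0.0616). The cold-inducible gene Cirbp differed by -0.03.

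In the ER, Hspa5, which encodes the chaperone BiP (probe A_55_P2076772, chr2:34772090-34776529), ran from 5.19 to 5.53 (median 5.44) in control and from 5.58 to 5.92 (median 5.78) in stress mice. It rose by 0.37 ± 0.08 (limma adjusted p = 0.0461), a 1.29-fold rise, by 0.36 on slide 1 and 0.37 on slide 2. Creld2, an ER-resident folding factor (probe A_51_P122246, chr15:88819646-88826681), ran from 3.11 to 3.42 and from 3.45 to 4.04, a rise of 0.49 ± 0.09 (limma adjusted p = 0.0439), with 0.38 on slide 1 and 0.54 on slide 2. Both genes' groups were apart in all 12 mice. Manf, a secreted ER stress protein with trophic action on neurons, rose by 0.42 (limma adjusted p = 0.0439), and Xbp1, the transcription factor of the unfolded protein response, by 0.36 (0.0461). Manf lay between 1.72 and 1.94 in control and between 1.99 and 2.52 in stress mice, and Xbp1 between 5.13 and 5.24 and between 5.28 and 5.80. Pdia6, a disulfide isomerase gene, rose by 0.27, and its other probe differed by 0.24. The groups did not overlap for Manf, Xbp1 and Pdia6, and overlapped for the called genes Atf6 (0.26) and Dnajb11 (0.23). Sdf2l1 (0.55; limma adjusted p = 0.0637), Calr (0.22; 0.0573) and Hsp90b1 (0.05; 0.558) did not pass.

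The promoters of the ER genes were searched for the ER stress element, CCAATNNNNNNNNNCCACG, on both strands of the 250 bases before each RefSeq gene start (build GRCm38.p6). The element was present in 37 of 32851 windows (0.113%) and in 17 of the 12097 tested genes with a window (0.141%). It was present in 3 of 381 genes called higher (0.787%) and in 0 of 260 called lower. Of those without overlap between groups, 3 of 188 higher (1.60%) and 0 of 78 lower held it. The 3 genes were Hspa5 (chr2:34771840-34772089, plus strand), Creld2 (chr15:88819396-88819645, plus strand) and Pdia6 (chr12:17266339-17266588, plus strand). Their windows are shown because these genes share the rise and the motif, with the element in capitals, in Creld2 as its reverse complement:
Hspa5: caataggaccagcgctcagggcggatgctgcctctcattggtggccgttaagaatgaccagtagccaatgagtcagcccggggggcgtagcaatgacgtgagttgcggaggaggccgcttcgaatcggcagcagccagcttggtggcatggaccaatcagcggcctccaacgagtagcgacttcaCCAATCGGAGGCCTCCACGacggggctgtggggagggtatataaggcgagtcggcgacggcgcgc
Creld2: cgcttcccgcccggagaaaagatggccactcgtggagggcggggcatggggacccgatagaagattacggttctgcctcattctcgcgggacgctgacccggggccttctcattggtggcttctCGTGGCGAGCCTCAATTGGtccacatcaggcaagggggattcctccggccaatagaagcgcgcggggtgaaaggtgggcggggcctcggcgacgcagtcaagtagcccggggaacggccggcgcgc
Pdia6: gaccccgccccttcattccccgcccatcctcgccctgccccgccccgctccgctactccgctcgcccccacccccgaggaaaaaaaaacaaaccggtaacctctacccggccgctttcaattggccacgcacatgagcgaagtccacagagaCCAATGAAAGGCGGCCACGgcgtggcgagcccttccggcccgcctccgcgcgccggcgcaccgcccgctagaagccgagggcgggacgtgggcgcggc
The element ends 46, 107 and 79 bases before the gene start, in that order. Of the 17 tested genes with the element, 15 were above 0 (63.2% of all genes), 3 were called higher (background 3.12%) and 0 lower. Their differences ran from -0.36 to 0.49 with a median of 0.15. The 3 called genes belong to the ER list, which was written after the values had been seen, so these counts are a description. Hsp90b1 holds 2 such elements and did not pass the test. A match is a match of letters and was not tested as a binding site.

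The heat shock element was searched the same way, on both strands. Its 2-unit form, GAANNTTC, was present in 6.32% of tested genes with a window, in 25 of 381 genes called higher (6.56%) and in 9 of 260 called lower (3.46%). It was present in 6 of the 17 heat shock genes with a window (35.3%), and in 2 of the 6 called. The full element of 3 units was in none of these 6. The window of Hspb1 (chr5:135887669-135887918, plus strand, RefSeq, GRCm38.p6), the largest rise of the list, holds the 2-unit form at 2 places that end 109 and 89 bases before the start, in capitals:
Hspb1: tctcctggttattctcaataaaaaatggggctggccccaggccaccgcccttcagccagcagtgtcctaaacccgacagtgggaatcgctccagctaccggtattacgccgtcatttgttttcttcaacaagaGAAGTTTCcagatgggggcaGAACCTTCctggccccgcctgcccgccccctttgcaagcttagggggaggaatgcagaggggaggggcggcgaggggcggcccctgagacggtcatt
Dnaja1 holds it once, ending 116 bases before its start.

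**Figure D3:**
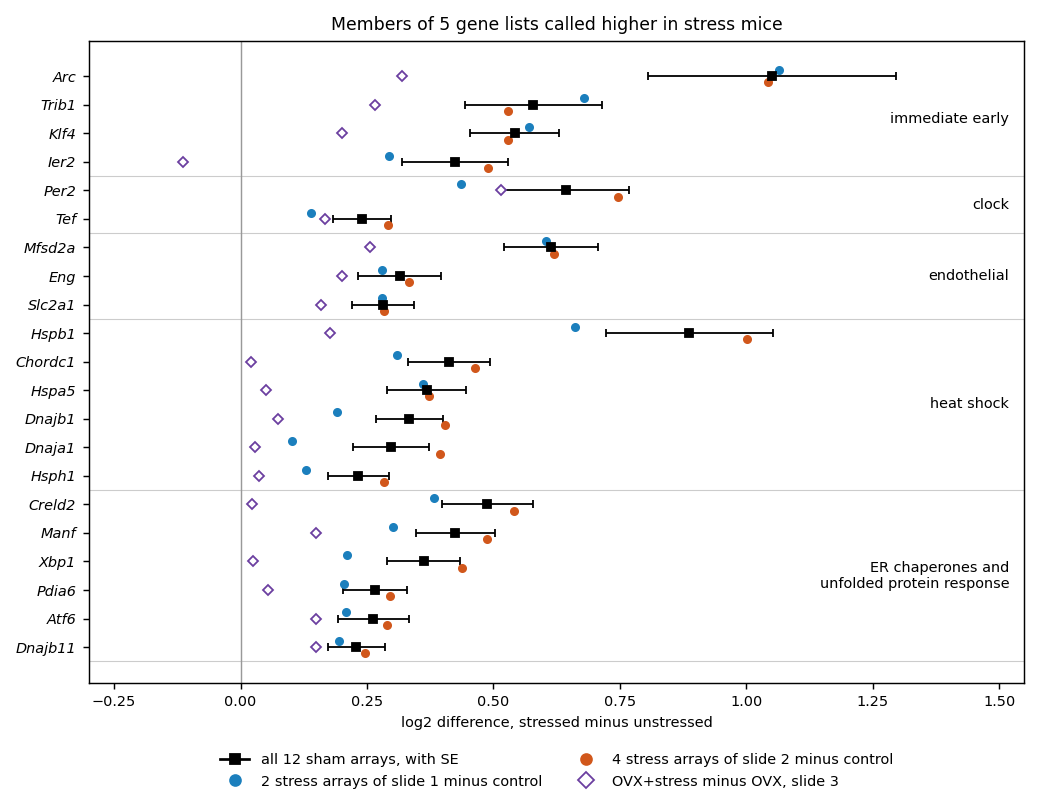
Stress minus control difference (x axis, log2; square with SE over all 12 arrays) of each gene called higher in 5 gene lists, beside the slide 1 and slide 2 differences (circles) and OVX+stress minus OVX on slide 3 (open diamonds). Genes were drawn because they were called higher with the arrays of slides 1 and 2, where every difference is above 0. On slide 3 only Ier2 lies below 0.

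Of 28 tested endothelial and pericyte genes, 26 were above 0 (63.2% of all genes). Of the 28, 3 were called higher (Mfsd2a, Slc2a1 and Eng, background 3.12%) and none lower. The median difference was 0.20 (0.11 with spike-in scaling). This median was 0.05 on slide 1 and 0.28 on slide 2. Eng, a coreceptor of endothelium for TGF-beta ligands, differed by 0.31, 0.28 on slide 1 and 0.33 on slide 2. The 3 called genes were above 0 by a similar amount on both slides, but the call used these arrays and favours such genes. With the row as a block, their slide 1 differences were 0.68 (Mfsd2a), 0.22 (Slc2a1) and 0.16 (Eng). Abcb1a, the drug efflux pump of the barrier, differed by 0.33 without overlap (limma adjusted p = 0.0524). Meningeal and fibroblast genes had a median above 0 on slide 2 but not on slide 1. Whether they vary with the endothelial list from array to array was not tested. All 18 tested members were above 0 over both slides, with a median difference of 0.45. The median was -0.15 on slide 1 and 0.72 on slide 2. With the row as a block, the slide 1 median of these genes was -0.33, and 3 of the 18 were above 0. Their summed intensity was 38.1 to 121 times the 75th percentile in control arrays and 51.7 to 206 in stress arrays. Only the matrix proteoglycan gene Bgn was called (0.43; limma adjusted p = 0.0499), and Ptgds, a gene of the leptomeninges, differed by 1.03 ± 0.40 (limma adjusted p = 0.110). Erythroid genes, a measure of blood in the tissue, were above 0 in all 10 tested members, with a median of 0.24 and no call. Their summed intensity was 175 to 282 in control and 220.0 to 352 in stress arrays, and the part of meninges and blood in the vascular shift was not tested.

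Of 35 tested synaptic vesicle and release genes, 29 were above 0 (63.2% of all genes), 2 were called higher (background 3.12%) and none lower. The median difference was 0.08. With spike-in scaling it was -0.01, and 13 of the 35 were above 0. Of 79 cytosolic ribosomal protein genes, 64 were likewise above 0, with a median of 0.07 (-0.02 with spike-in scaling). Bsn, the active zone scaffold Bassoon, lay between 4.64 and 4.82 (median 4.74) in control and between 4.90 and 5.01 (median 4.98) in stress mice. It rose by 0.25 ± 0.04 (limma adjusted p = 0.0432), by 0.21 on slide 1 and 0.27 on slide 2, and its groups did not overlap. Syn3, a synapsin, was higher by 0.36 by its brightest probe, and its other probe differed by -0.50, so that its direction depends on the probe. Syn1 differed by 0.34 without overlap (limma adjusted p = 0.0848).

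Among 33 tested glutamate receptor and transporter genes, 3 were called higher and 1 lower (background 3.12% and 2.26%). The median was 0.06 (-0.03 with spike-in scaling). Grin1, the obligatory subunit of the NMDA receptor, lay between 2.62 and 2.79 in control and between 2.88 and 3.03 in stress mice. It rose by 0.22 ± 0.04 (limma adjusted p = 0.0461), by 0.23 on slide 1 and 0.21 on slide 2, and its other probe differed by 0.13. The kainate receptor gene Grik5 (0.19) and the neuronal glutamate transporter gene Slc1a1 (0.17) also rose, and the kainate receptor gene Grik1 fell by 0.38. Of 17 GABA-A receptor and associated genes, 1 was called, Gabrb1 (0.27). Of 25 monoamine receptor genes, 1 was called, the dopamine receptor gene Drd4, which was lower (-0.90; limma adjusted p = 0.0491). No gene was called among 31 neuropeptide genes, 14 neurotrophin genes, 27 excitatory neuron genes and 31 GABAergic interneuron genes by limma's test at an adjusted p under 0.05. Crh differed by -0.01, Npy by -0.02, Sst by -0.11 and Pvalb by -0.22, each within the spread between mice.

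The 12 largest called falls without overlap were those of Cbx7, Olfr212, Ndfip2, Uchl3, Atp8b2, Zfp788, Dnmt3l, Smyd1, Pkib, Sptlc3, Frs3 and Sp3. Cbx7, a Polycomb group gene (probe A_55_P1980401, chr15:79915804-79971143), ran from -2.39 to -1.77 (median -2.15) in control and from -5.08 to -2.51 (median -4.45) in stress mice. It was 3.64-fold lower, a difference of -1.86 ± 0.44 (limma adjusted p = 0.0476). The stress arrays of slide 1 read -2.53 and -2.51, just below the control arrays, and the slide 2 arrays read -5.08 to -4.34. The slide 1 difference was -0.40, the slide 2 difference -2.59, and another probe of the gene differed by -0.08.

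The same split ran through the list of falls. Pkib, an inhibitor of protein kinase A, lay between 1.58 and 1.66 in control mice and between 0.42 and 1.51 in stress mice, and differed by -0.12 on slide 1 and -1.13 on slide 2. Smyd1, a histone methyltransferase gene known from muscle, differed by -0.16 and -1.12. Uchl3, a deubiquitinase, differed by -0.36 and -1.18, and Ndfip2, an adaptor of ubiquitin ligases (probe A_55_P1990538, chr14:105258591-105309298), by -0.30 and -1.36. In 11 of the 12, the stress arrays of slide 2 were below those of slide 1 at a limma adjusted p under 0.05. The exception was Dnmt3l, a cofactor of DNA methyltransferases, which fell by 0.84, with -0.54 on slide 1 and -0.99 on slide 2 (adjusted p between slides 0.0572). Its probe is dim, with a mean intensity of 46. For all 12, Dnmt3l included, stress, slide and row cannot be told apart beyond the slide 1 difference.

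**Figure D4:**
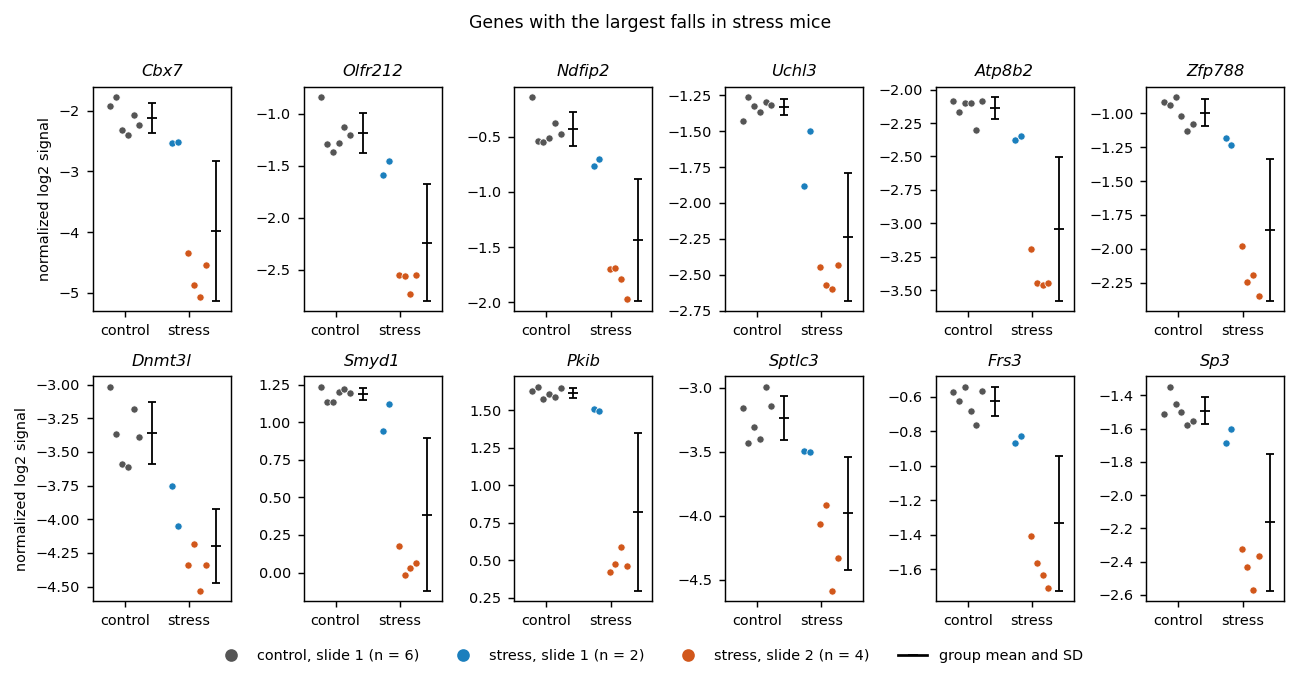
Level of the 12 genes with the largest called falls in each array (y axis, log2 intensity relative to the 75th percentile), for control mice and for stress mice of slide 1 and slide 2, with group mean and SD. Genes were chosen for having no overlap. The stress arrays of slide 1 lie just below the control arrays, and those of slide 2 lower in most of the genes.

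Of 37 tested myelin and oligodendrocyte genes, 1 was called higher, Nfasc (0.23), and 8 were above 0, with a median difference of -0.11. The median was -0.00 on slide 1 and -0.19 on slide 2. Control array 1 stood apart, with a list shift of 0.63 against 0.07 for the next control array. Mbp, a major myelin protein gene, differed by 0.23 by its brightest probe (limma adjusted p = 0.0601), by 0.48 by a dimmer probe that was called (0.0483) and by -0.04 by another. Gpr17, a receptor of differentiating oligodendrocyte precursors, rose by 0.34 without overlap and was the only call of 15 precursor genes. Of 26 astrocyte genes, 1 was called, the secreted protease gene Htra1 (0.30), and Gfap differed by -0.22 (limma adjusted p = 0.465). None of 26 microglia genes passed. Of 30 interferon-stimulated genes, 26 were above 0, and 1, Bst2 (0.32), was called. Their median of 0.14 (0.05 with spike-in scaling) was -0.04 on slide 1 and 0.23 on slide 2. Of 6 neutrophil genes, 1 was called, Elane, lower by 0.83, with -0.28 on slide 1 and -1.11 on slide 2.

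Housekeeping groups gave 1 call. No gene of 75 oxidative phosphorylation genes or 31 proteasome genes passed, and of 79 cytosolic ribosomal protein genes only Rpl7a did (-0.19; limma adjusted p = 0.0480). Of 15 estrogen and progesterone response genes, Xbp1 was called higher and Igf1 lower (-0.39), the latter with -0.07 on slide 1, -0.56 on slide 2 and -0.08 to 0.15 for its 4 other probes. No choroid plexus gene of 8 tested was called, and their summed intensity was 1.19 to 1.39 in control and 1.41 to 1.48 in stress arrays. Ttr, the defining gene of that list, was not well above background on all arrays and was not tested.

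**Figure D5:**
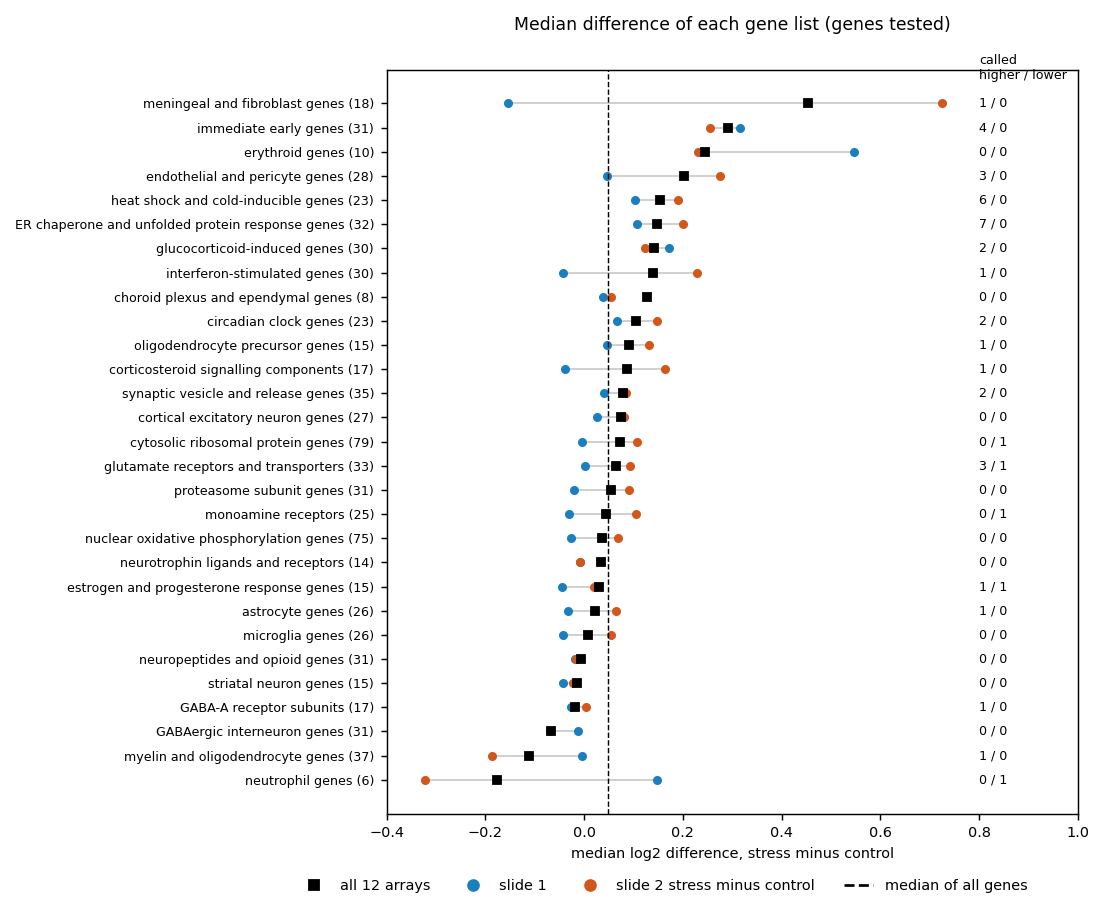
Median stress minus control difference of each gene list (x axis, log2), over all 12 arrays and for the stress arrays of slide 1 and of slide 2 against the same control arrays, with the counts called higher and lower at the right. The immediate early genes have similar medians on both slides (0.32 and 0.26), and the meningeal genes have opposite ones (-0.15 and 0.72).

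The stress difference was also set beside that of ovariectomized mice, for which the OVX+stress arrays 1 to 6 and OVX arrays 5 and 6 share slide 3, so that no array and no slide is common to both. No probe of 28849 passed there (limma), and 601 (2.08%) had an unadjusted p under 0.05. Of 478 genes called higher in sham-operated mice, 406 (84.9%) were above 0 on slide 3, and of 327 called lower, 188 (57.5%) were below 0. Over all 15055 genes the same sign was found for 56.8%. With the row of the slide as a block on slide 3, the shares were 74.9% of the genes called higher, 48.9% of those called lower and 52.1% of all genes. The median slide 3 difference was 0.07 for the genes called higher and -0.02 for those called lower. For the 12 largest rises the median slide 3 difference was 0.19. Their differences ran from 0.01 for Luc7l to 0.52 for Per2, with 0.32 ± 0.32 (SE) for Arc and 0.26 ± 0.10 for Mfsd2a. On slide 3 the 7 called ER genes differed by 0.02 (Creld2 and Xbp1) to 0.15 (Manf, Dnajb11 and Atf6), with 0.05 for Hspa5 and Pdia6.

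The difference between the stress effects of sham-operated and ovariectomized mice was tested over all 24 mPFC arrays, and 1249 of 28849 probes (4.33%) had an interaction at a limma adjusted p under 0.05. Hspa5 was among them, with an interaction of -0.41, as were Xbp1 (-0.39), Creld2 (-0.50), Manf (-0.44) and Chordc1 (-0.45). These genes are named for their stress difference, which the interaction subtracts, so that choice favours the sign it took. For the 5 genes, OVX+stress minus OVX was between -0.05 and -0.01 over all OVX arrays. The groups of this comparison lie on different slides, and with slide as a block no probe passed, with 668 at an unadjusted p under 0.05.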

How the data were processed

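RNA of 12 mPFC samples was labelled with Cy3 and hybridised to 1-colour Agilent mouse arrays. The authors extracted the deposited intensity values from the scans with background subtraction, using Agilent's Feature Extraction (version 10.7.3.1 in the headers). The log2 table deposited by the authors holds the same values minus the 75th percentile of each array: for 100% of 55249 single-spot probes it was within 0.001, up to 1 constant per array, and it was used as an alternative.

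Of 62976 spots, 3671 controls were left out, as were spots marked uneven or outlying (98 to 191 per array). Log2 of the processed signal was averaged over spots of a probe, and the 75th percentile over all 55681 probes was subtracted. Probes well above background on all 12 arrays entered a linear model of limma (version 3.58.1; R version 4.3.3; lmFit, eBayes, two-sided, Benjamini-Hochberg at 0.05) with no covariate. Python 3.11.15 and matplotlib 3.10.9 drew the figures. The code was tested on simulated data with known changes. The number of arrays limits the precision. The labels name 1 mouse per array.

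Symbols came from RefSeq (GRCm38.p6) by transcript for 26857 probes, by symbol for 3757 and by synonym for 623, and otherwise from the array. A gene is represented by its brightest tested probe. Of called genes with a proper symbol and no overlap between groups, the 12 largest rises and 12 largest falls are named, with up to 4 members of each list by smallest p, a fixed set of stress, clock and cell type genes, and ER genes. The comparison, the gene lists and the named genes were chosen with earlier results of these data known. Lists are described by counts and medians, with no test of a list. Alternatives were other background corrections, scalings and filters, other estimates of the spread, slide, row and replicate blocks, and leaving out each array. Some genes are not reported here. The position on the slide and the slide 2 arrays alone were added after the data were seen.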

Additional observations from a re-analysis of the deposited data

Results flagged for a closer look

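For 23 of 96 named genes the stress difference of sham-operated mice differed from that of ovariectomized mice by limma's interaction test over 24 arrays (adjusted p under 0.05), against 475 of 15055 genes tested. Most were named for a large stress difference, which the interaction subtracts, so that choice favours the signs below. The interaction, which is (OVX+stress minus OVX) minus (stress minus control), was below 0 for genes higher in stress mice: Bgn -0.58, Zbtb40 -0.51, Creld2 -0.50, Luc7l -0.49, P4ha1 -0.46, Chordc1 -0.45, Manf -0.44, Hspa5 -0.41, Ncor1 -0.39, Xbp1 -0.39, Gabrb1 -0.36 and, not called in sham-operated mice, Csnk1d -0.27. It was above 0 for genes lower in stress mice: Dnmt3l 1.38, Drd4 1.06, Atp8b2 1.00, Sptlc3 0.93, Elane 0.90, Ndfip2 0.89, Smyd1 0.88, Zfp788 0.79, Uchl3 0.76, Frs3 0.64 and Igf1 0.50. The groups lie on different slides, and no probe passed with slide as a block (limma; 668 at an unadjusted p under 0.05).

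In 13 of 250 groups of 6 arrays (5.2%), 1 array lay far from the other 5 by Dixon's criterion, and chance marks about 1 group in 20. By gene, control array 1 read 0.48 for Abcb1a (next 0.87) and 0.48 for Sult1a1 (next -0.01). Control array 5 read -2.30 for Atp8b2 (next -2.16), 2.61 for Bdnf (next 2.03) and 2.57 for Nfkbia (next 2.35). Control array 3 read 5.69 for Syn1 (next 6.32), and control array 6 read 1.01 for Sdf2l1 (next 0.24). Stress array 6 read 3.54 for Grik5 (next 3.46).

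Of the list shifts, control array 1 stood at 0.63 for the myelin genes (next 0.07). Stress array 1 stood lowest of its group for 4 lists, at -0.05 for excitatory neuron genes (next 0.03), -0.05 for glutamate receptors and transporters (next 0.02), -0.05 for synaptic vesicle genes (next 0.05) and -0.13 for oxidative phosphorylation genes (next 0.03).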

How the results depend on the processing

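The count of 1712 probes was 3002 with normexp, 2898 with a trended robust spread, 4796 with all 24 arrays, 5172 with the row of the slide as a block, 11054 for the slide 2 stress arrays alone, 464 with a size of 0.5 or more, 607 with 1 probe per gene and 291 with each probe's own spread. It was 0 without the filter (limma; 9919 unadjusted), with slide as a block (1988), with slide as a random block (2943; correlation 0.346) and with row and slide as blocks (3130). Without 1 array it ran from 0 to 7044: 7044 without stress 1, 6177 without stress 2, 58 without control 5, 2 without stress 3, 1 without control 1 or 4, and 0 without control 2, 3 or 6 or stress 4, 5 or 6 (7012 to 11767 unadjusted over all 12). Spike-in scaling gave 5.79% higher calls against 44.5%. Within slide 1, 0 calls became 21 without stress 1 and 40 without stress 2, a range of 0 to 40. The 4609 probes between slides became 1098 without the filter, 2935 with their own spread, 2735 with the row as a block, and 2151 to 3228 without 1 array (2151 without stress 6, 2545 without stress 4, 2559 without stress 1, 2612 without stress 5). The share higher on slide 2 was 35.1%, 46.9% with normexp, 23.8% with the percentile of detected probes and 15.3% with spike-ins. The 1249 interactions became 0 with spike-ins (4739 unadjusted), 1 without the filter, 712 with their own spread, 0 with slide as a block and 1 to 3832 without 1 array.

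The replicate numbers do not pair mice (correlations of deviations -0.208 to 0.369). With a replicate block, 0 probes passed for stress (limma; 8973 unadjusted), 0 within slide 1 and 386 for the interaction.

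The 59 called genes named kept their direction in all 28 alternatives each. The alternatives refit the arrays from which these genes were chosen, so the kept direction is a description. Of 1652 values, 964 missed the threshold. The cause was not tested. Signal over background limits dim probes.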
